A study of Homo sapiens with 48 samples.

Results

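H3K27ac, the acetylated histone mark of active promoters and enhancers, was compared between 6 h of TNFα and 6 h of TWEAK in L3.6pl, an established human pancreatic ductal adenocarcinoma line. The members are the H3K27ac regions listed after each ligand on chromosomes 1 to 22 and X of hg38. A region was called TNFα-only or TWEAK-only when it shared not even 1 bp with the list of the other ligand, and otherwise present in both. Of 61154 TNFα regions 13295 were TNFα-only, and of 57982 TWEAK regions 7406 were TWEAK-only, which leaves 47859 TNFα regions and 50576 TWEAK regions present in both. These 119136 regions belong to the 384250 regions of the 13 lists of the series used here, and the vehicle H3K27ac list held 59855 regions.

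The groups were L3.6pl cells given TNFα for 6 h, TWEAK for 6 h, or PBS as vehicle for a time that the labels do not state, with no genetic change named. RELA after 6 h of TNFα and RELB after 6 h of TWEAK were mapped in the same line, as was the AP-1 subunit FOSL1 in vehicle. Each condition has 3 replicates but 1 deposited list called on merged samples, so the spread between replicates is not known and the ligands could not be tested against each other. Percentages carry exact (Clopper-Pearson) 95% intervals in parentheses, which cover counting error only, and regions are not replicates of a treatment. Sequencing depth is unknown, and the length of a peak list also moves with depth.

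TNFα binds TNF receptors and activates the canonical NF-κB route, in which IκB proteins such as NFKBIA are degraded and RELA with p50 enters the nucleus. TWEAK binds TNFRSF12A (Fn14) and is best known for the slower noncanonical route, in which the kinase NIK drives processing of p100 and RELB with p52 enters the nucleus. Acetylation of H3K27 at enhancers and promoters accompanies transcription, and NF-κB dimers recruit the acetyltransferases that place it.

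The sequences below carry the contrast between the ligands and are shown because a RELA or RELB summit lay in or beside H3K27ac that differed between the lists. All are from hg38, plus strand, with matches to the NF-κB letters GGGANNTTCC and the AP-1 letters TGANTCA in capitals. Both strands were searched everywhere below. The AP-1 letters read the same on either strand, and the NF-κB letters were also searched as their reverse complement. The NFKBIA site near the start site is chr14:35404811-35404840 and the one in the gene body chr14:35403953-35403982, each of 30 bases, as is the IL32 site at chr16:3065294-3065323. The other windows span 200 bases around a summit. They are chr17:34252532-34252731 upstream of CCL2 and chr11:71911721-71911920 in an intron of XNDC1N.
NFKBIA, start site: gtcaggctcgGGGAATTTCCaagccagtca
NFKBIA, gene body: caggcgcccaGGGACTTTCCgcccccctcc
IL32: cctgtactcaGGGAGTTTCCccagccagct
CCL2: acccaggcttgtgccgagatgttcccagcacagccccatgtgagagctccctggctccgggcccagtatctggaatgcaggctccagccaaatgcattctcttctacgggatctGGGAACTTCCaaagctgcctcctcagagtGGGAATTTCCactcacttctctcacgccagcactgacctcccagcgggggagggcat
XNDC1N: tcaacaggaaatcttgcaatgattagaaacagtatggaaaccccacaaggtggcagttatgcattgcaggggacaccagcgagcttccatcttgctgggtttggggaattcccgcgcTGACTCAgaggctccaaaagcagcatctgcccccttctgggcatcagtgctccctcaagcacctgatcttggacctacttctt
The CCL2 window held 2 NF-κB matches and the XNDC1N window 1 AP-1 match. The NF-κB letters are a strict pattern, so a window without a match is not shown to lack an NF-κB site. The XNDC1N window holds gggaattccc beside its AP-1 match, which is close to these letters but not counted. Outside tandem repeats, 21.2% (19.9 to 22.6) of the 200 bp windows around RELA summits of 6 h TNFα and 22.9% (20.8 to 24.97) of those around RELB summits of 6 h TWEAK held GGGANNTTCC on either strand. TGANTCA was present in 29.3% (27.8 to 30.8) and 35.5% (33.2 to 37.9) of the same windows.

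The TNFα list covered 55.5 Mb, close to the 55.5 Mb of vehicle, and the TWEAK list 46.4 Mb, or 0.837 times vehicle. The ligands shared 41.0 Mb, which is 73.9% of the TNFα bases and 88.3% of the TWEAK bases. TNFα-only regions made up 21.7% of the TNFα list and TWEAK-only regions 12.8% of the TWEAK list. There were 1.80 TNFα-only regions for each TWEAK-only region, and on every chromosome from 1 to 22 and on X the TNFα-only regions were the more numerous, with the smallest ratio, 1.31, on chromosome 19. Outside tandem repeats the ratio was 1.85. A part of the shared class was split differently in the 2 lists. Of the TNFα regions 3465 overlapped 2 or more TWEAK regions, whereas 828 TWEAK regions overlapped 2 or more TNFα regions. Stretches listed as 1 region after TNFα were thus more often split in the TWEAK list than the reverse. This describes the peak calls, and whether it follows from sequencing depth was not tested.

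The regions of a single ligand were short and weak beside the shared ones. TNFα-only regions had a median length of 330 bp (quartiles 257 to 451) against 969 bp (541 to 1447) for TNFα regions in both lists, and a median fold enrichment over input of 2.57 against 3.19. TWEAK-only regions had a median length of 275 bp (216 to 368) against 733 bp (407 to 1234) and a median fold enrichment of 2.79 against 3.32. The median −log10 q was 2.19 for TNFα-only and 1.83 for TWEAK-only regions, against 7.85 and 5.54 for the shared regions of the same lists. These values were used only within a list. The nearest region of the other ligand lay a median of 8328 bp away for TNFα-only and 8188 bp for TWEAK-only regions, and within 1000 bp for 20.9% and 22.7% of them.

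Regions of 1 ligand were present in vehicle less often than shared regions. Of the shared TNFα regions 95.2% (95.01 to 95.4) overlapped the vehicle list and of the shared TWEAK regions 94.96% (94.8 to 95.2). Of the TNFα-only regions 40.4% (39.5 to 41.2) did so, and of the TWEAK-only regions 39.04% (37.9 to 40.2). These last intervals overlap. With q of at most 0.001 in both lists the shares of the single-ligand regions were 77.8% and 79.0%, and with the 40000 strongest regions of each list 79.1% and 81.0%, so that most of the stronger ones were present in vehicle. This leaves 7930 TNFα-only and 4515 TWEAK-only regions absent from vehicle, while 2293 TNFα regions shared with TWEAK were absent from vehicle.

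**Figure D1:**
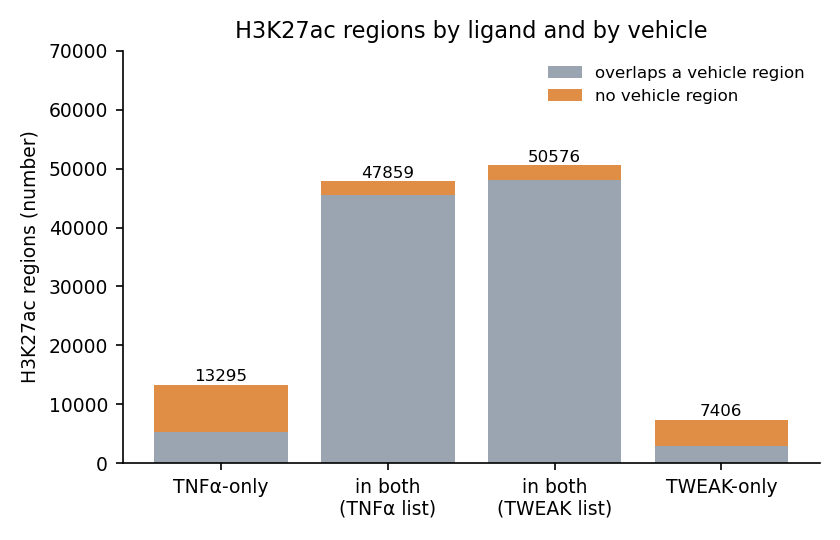
Number of H3K27ac regions (y axis) that were TNFα-only, present in both lists or TWEAK-only, split into regions that overlap a vehicle region (grey) and regions that do not (orange). The 13295 TNFα-only regions outnumber the 7406 TWEAK-only regions, and nearly all shared regions are grey.

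Promoters were scarce among the regions of 1 ligand. A region was placed at a promoter when it lay within 1000 bp of the transcription start site of a protein-coding gene. This held for 5.32% (4.94 to 5.71) of TNFα-only and 6.41% (5.87 to 6.99) of TWEAK-only regions, against 29.1% (28.7 to 29.6) of shared TNFα regions. Introns held 47.2% of TNFα-only and 44.8% of TWEAK-only regions, and 43.8% and 45.0% were intergenic. The median distance to the nearest protein-coding start site was 34056 bp for TNFα-only, 33092 bp for TWEAK-only and 16456 bp for shared TNFα regions. The regions of 1 ligand were therefore mostly distal, and about equally far from genes. They do not hold the whole difference between the lists. Of the 55.5 Mb of the TNFα list 41.0 Mb were shared with TWEAK, and TNFα-only regions held 5.18 Mb. More of the unshared TNFα bases thus lay in regions present in both lists.

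The early lists showed which of these regions had been acetylated at 30 min. Of the TNFα-only regions 27.5% overlapped the list of 30 min of TNFα and 27.2% that of 30 min of TWEAK. Of the TWEAK-only regions 27.9% overlapped the TNFα list of 30 min and 32.8% the TWEAK list of 30 min. Outside tandem repeats and absent from vehicle, the shares were 19.8% (18.9 to 20.7) and 15.5% (14.7 to 16.3) for TNFα-only and 16.6% (15.5 to 17.8) and 20.0% (18.8 to 21.2) for TWEAK-only regions. In these regions the list of the same ligand gave the larger share. Among TNFα-only regions that were present in vehicle the order was the reverse, with 35.5% (34.2 to 36.9) in the TNFα and 40.5% (39.2 to 41.9) in the TWEAK list of 30 min outside tandem repeats.

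RELA and RELB overlap depended strongly on tandem repeats, stretches whose central 1000 bp match themselves after a shift of 1 to 400 bp. These held 6.86% of TNFα-only, 9.45% of TWEAK-only and 4.27% of shared TNFα regions. Over all regions, RELA after 6 h of TNFα overlapped 4.42% (4.07 to 4.78) of TNFα-only, 3.93% (3.498 to 4.40) of TWEAK-only and 6.79% (6.57 to 7.02) of shared TNFα regions. RELB after 6 h of TWEAK overlapped 2.497% (2.24 to 2.78) of TNFα-only and 2.65% (2.29 to 3.04) of TWEAK-only regions. For either factor the intervals of the TNFα-only and TWEAK-only shares overlap.

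Outside tandem repeats the classes separated. RELA overlapped 214 of 12383 TNFα-only regions, or 1.73% (1.51 to 1.97), and 15 of 6706 TWEAK-only regions, or 0.224% (0.125 to 0.369). RELB overlapped 62 TNFα-only regions, 0.501% (0.384 to 0.641), and 7 TWEAK-only regions, 0.104% (0.042 to 0.215). Both factors thus lay more often at H3K27ac listed after TNFα alone, including RELB mapped after TWEAK itself. Restricted to regions absent from vehicle, RELA overlapped 163 of 7310 TNFα-only regions, 2.23% (1.90 to 2.59), and 8 of 4044 TWEAK-only regions, 0.198% (0.0854 to 0.389). RELA after 30 min of TNFα, whose merging of replicates is not settled from the peak names, overlapped 4.31% (3.86 to 4.80) and 0.470% (0.283 to 0.733) of the same regions. RELA mapped after 6 h of TWEAK overlapped 0.121% (0.0678 to 0.200) of TNFα-only and 0.0447% (0.00923 to 0.131) of TWEAK-only regions outside tandem repeats, and RELB mapped after 6 h of TNFα 0.170% (0.105 to 0.259) and 0.0746% (0.0242 to 0.174), with overlapping intervals for both. The RELA list of vehicle overlapped 0.0888% (0.0444 to 0.159) of TNFα-only and 0 of 6706 TWEAK-only regions outside tandem repeats, which allows a share of up to 0.0447% (3 counts).

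Many RELA summits lay in the gap between acetylated stretches and were missed by direct overlap. With a window of 500 bp around the summit, chosen for regions after this was seen, 6.65% (6.09 to 7.24) of TNFα-only regions absent from vehicle had a RELA summit nearby, against 0.593% (0.381 to 0.882) of TWEAK-only regions absent from vehicle. For RELB the shares were 2.18% (1.85 to 2.54) and 0.495% (0.302 to 0.763). TNFα-only regions that were present in vehicle had RELA nearby in 1.89% (1.54 to 2.31), fewer than the new ones. For TWEAK-only regions the share was 0.563% (0.316 to 0.928) for those present in vehicle, within the interval of those absent from it.

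**Figure D2:**
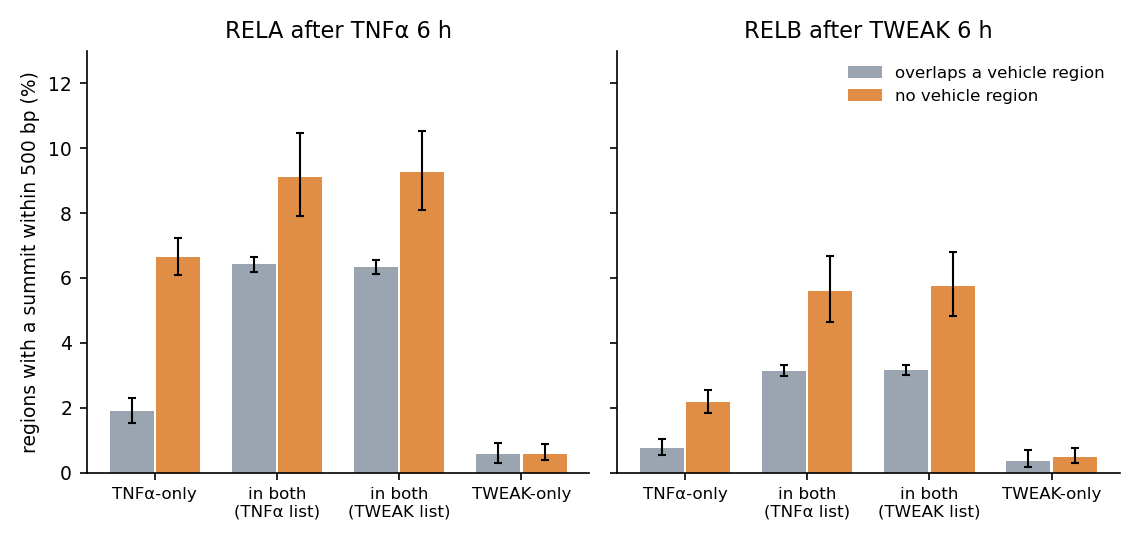
Share of H3K27ac regions outside tandem repeats (y axis, percent) with a RELA summit of 6 h TNFα (left) or a RELB summit of 6 h TWEAK (right) within 500 bp, for regions that overlap vehicle (grey) and regions that do not (orange), with exact 95% intervals for counting error. TNFα-only regions absent from vehicle reach 6.65% for RELA, and TWEAK-only regions stay below 1% for both factors.

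Length was taken into account because a longer region has more room for a summit. Among regions over 500 and up to 1000 bp outside tandem repeats, RELA overlapped 3.44% (2.72 to 4.28) of TNFα-only, 2.85% (2.58 to 3.15) of shared TNFα and 0.485% (0.100 to 1.41) of TWEAK-only regions. Among regions over 1000 and up to 2000 bp it overlapped 41 of 247 TNFα-only regions, 16.6% (12.2 to 21.8), against 6.12% (5.79 to 6.47) of shared TNFα regions. Only 9 TWEAK-only regions were that long, and 0 overlapped RELA, which allows a share of up to 33.3% (3 counts). The long TNFα-only regions were therefore richer in RELA than shared regions of like length.

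**Figure D3:**
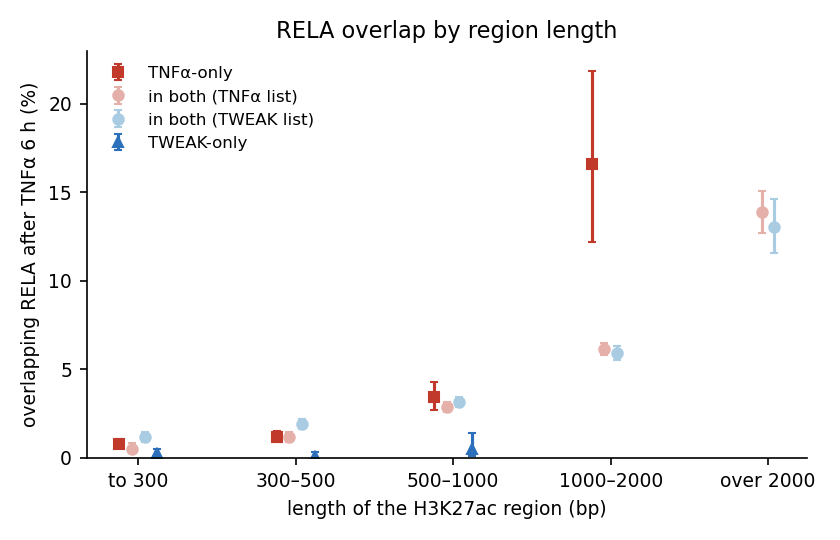
Share of H3K27ac regions outside tandem repeats that overlap RELA after 6 h of TNFα (y axis, percent) by region length (x axis, bp), with exact 95% intervals for counting error and classes of under 20 regions left out. Pale circles are regions present in both lists. TNFα-only regions (red squares) over 1000 and up to 2000 bp long stand at 16.6%, and TWEAK-only regions (blue triangles) stay below 1%.

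The 214 TNFα-only regions with RELA differed from the 12169 without it in other readouts. Their median length was 557 bp against 332 bp, 23.8% against 41.3% were present in vehicle, and 60.3% against 25.6% were present after 30 min of TNFα, while the share present after 30 min of TWEAK was 23.8% against 25.8%. FOSL1 overlapped 29.4% of them against 17.7%. GGGANNTTCC lay on either strand in the central 500 bp of 19.2% against 2.29%, beside 2.23% (2.14 to 2.32) of all regions of both lists outside tandem repeats. By class, the letters were found in 2.58% (2.31 to 2.88) of TNFα-only and 1.45% (1.17 to 1.76) of TWEAK-only regions. TGANTCA was found in 28.0% (27.3 to 28.8) and 23.7% (22.7 to 24.7), beside 25.1% of all regions, and FOSL1 overlapped 17.9% (17.2 to 18.6) of TNFα-only and 13.2% (12.4 to 14.1) of TWEAK-only regions outside tandem repeats. FOSL1 overlap rose with region length, which these FOSL1 shares do not take into account. All TNFα-only regions over 500 and up to 1000 bp stood at 28.6% (26.7 to 30.5), and TWEAK-only regions at 23.7% (20.4 to 27.3). Up to 300 bp the shares were 12.1% (11.2 to 13.1) and 11.1% (10.1 to 12.1). Over 300 and up to 500 bp they were 17.4% (16.4 to 18.5) and 14.0% (12.6 to 15.5).

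Read from the side of the factors, H3K27ac at NF-κB summits was listed after TNFα more often than after TWEAK. The whole TNFα list also covered 1.19 times the bases of the TWEAK list. At 3000 bp from RELA summits outside tandem repeats, 5.20% of positions lay in a TNFα and 4.25% in a TWEAK region. At that distance from RELB summits the shares were 5.65% and 4.74%. Of the 7266 RELA summits of 6 h TNFα, 832 had H3K27ac within 500 bp after TNFα and none after TWEAK, 11.5% (10.7 to 12.2), and 315 had it after TWEAK alone, 4.34% (3.88 to 4.83). Outside tandem repeats 426 of 3657 had it after TNFα alone, 11.6% (10.6 to 12.7), and 27 after TWEAK alone, 0.738% (0.487 to 1.07). In the same set 82.3% had H3K27ac after TNFα, 71.3% after TWEAK and 69.1% in vehicle. At RELB summits of 6 h TWEAK, 212 of 4038 had H3K27ac after TWEAK alone, 5.25% (4.58 to 5.98), and 412 after TNFα alone, 10.2% (9.29 to 11.2). Outside tandem repeats these were 19 and 127 of 1636, or 1.16% (0.701 to 1.81) and 7.76% (6.51 to 9.17). There 84.5% of the RELB summits had H3K27ac after TNFα, 77.9% after TWEAK and 73.4% in vehicle.

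The acetylation around these summits had 2 shoulders. At the RELA summit itself, outside tandem repeats, 53.3% of positions lay in a TNFα region, 42.1% in a TWEAK region and 49.4% in a vehicle region. At 300 bp to a side the highest shares were 69.1%, 55.9% and 55.9%. Relative to 500 bp away, the share at the summit was 12.4% lower after TNFα and 10.7% lower after TWEAK, while in vehicle the summit stood at or above that level. A RELA summit lay between a pair of TNFα regions, outside each and within 500 bp of both, in 630 of 3657 cases, 17.2% (16.02 to 18.5). For TWEAK regions this held in 15.97% (14.8 to 17.2) and for vehicle regions in 9.30% (8.38 to 10.3). At RELB summits the shares were 18.3% (16.5 to 20.3), 19.8% (17.9 to 21.8) and 10.7% (9.24 to 12.3).

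**Figure D4:**
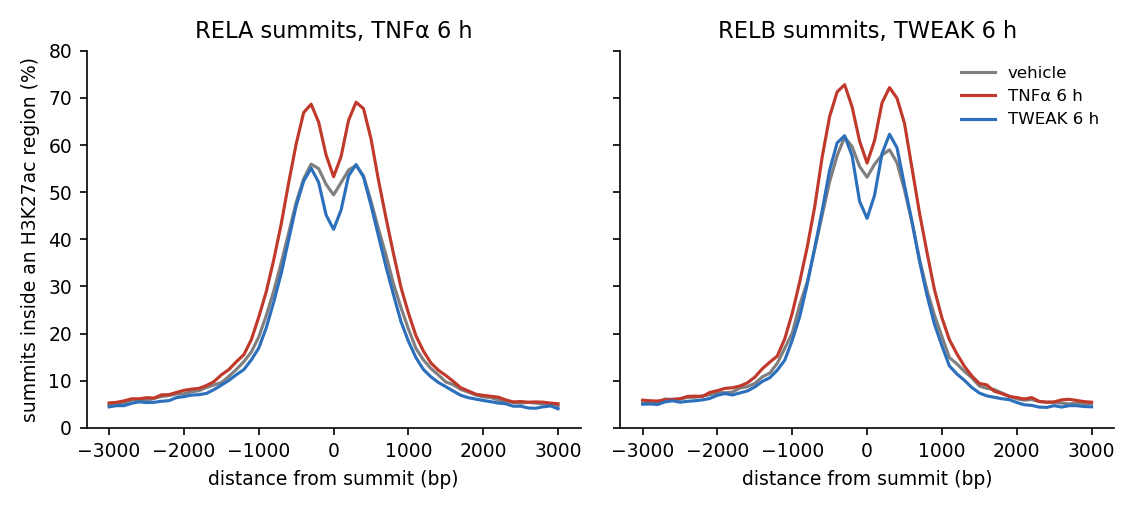
Share of RELA summits of 6 h TNFα (left) and RELB summits of 6 h TWEAK (right) outside tandem repeats (y axis, percent) whose position at the given distance (x axis, bp) lies inside an H3K27ac region of vehicle (grey), 6 h TNFα (red) or 6 h TWEAK (blue). The red line is the highest within 1000 bp of the summits in both panels, with 69.1% near 300 bp from RELA summits against 53.3% at the summit. Farther out in the right panel the grey line lies above the red at some distances.

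Genes were compared by the bases covered by H3K27ac regions within 10 kb of the start site of each of 19617 protein-coding genes. The median difference, TNFα minus TWEAK, was 54 bases over all genes. A difference of at least 1000 bases, a limit chosen after the values were seen, was reached in the TNFα direction by 312 genes (1.59%) and in the TWEAK direction by 10 genes (0.051%). When TWEAK bases were multiplied by 1.11, the ratio of the bases of the lists in these windows and a scaling added after seeing the data, the counts were 140 and 47. Of the 312 genes 33.3% had a RELA region of 6 h TNFα within 10 kb, against 7.18% of all genes, and 16.03% had a RELB region of 6 h TWEAK, against 2.90% of all genes. Of the 10 genes with more after TWEAK 1 had a RELA region and none had a RELB region. Among 10 genes these counts are close to what all genes show. The gene with RELA was ASS1, the argininosuccinate synthase of the urea cycle. ASS1 had 2801 bases in vehicle, 2142 after TNFα and 3149 after TWEAK.

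NFKBIA, the inhibitor that returns RELA to the cytoplasm and itself a classic NF-κB target, had the largest difference of all 19617 genes. It had 2751 bases in vehicle, 4802 after TNFα and 2084 after TWEAK, a difference of 2718, and it kept the first place after scaling with 2482. It also had the largest difference from vehicle after TNFα, 2051 bases. At its start site 1 region of 3373 bp, chr14:35402431-35405803, was listed after TNFα, where TWEAK gave a region of 753 bp and one of 1331 bp and vehicle one of 2374 bp. The RELA summits of NFKBIA stood 803 bp downstream and 62 bp upstream of the start site, at the NF-κB letters printed above. The RELB list of 6 h TWEAK had a region at each position too, the one downstream with a fold enrichment of 18.1. The TNFα list had 3 further regions that TWEAK lacked, among them chr14:35397670-35398074, 6877 bp downstream.

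Other feedback regulators stood on the same side. TNFAIP3 (A20), a ubiquitin-editing enzyme that shuts off TNF receptor signalling, had 1847 bases in vehicle, 3739 after TNFα and 2377 after TWEAK. Its region chr6:137873749-137874562, 6897 bp downstream of the start site, was TNFα-only at 6 h, and the RELA region chr6:137873382-137873723 lay in the gap between it and the region chr6:137872619-137873231. After 30 min of TWEAK a region covered that stretch, chr6:137872843-137874170. Of the 9 feedback regulators all 9 had more bases after TNFα and 3 passed 1000 bases (TNFAIP3, TNIP1 and ZC3H12A), with a list median of 653 against 54 for all genes. After scaling TNFAIP3 alone passed. Of all 19617 genes 11165 had more bases after TNFα, 3379 more after TWEAK and 5073 as many. TNIP1, a partner of A20, had 2922, 3872 and 2737 bases in vehicle, TNFα and TWEAK, with 3 TNFα-only regions. ZC3H12A (regnase-1), an RNase that degrades cytokine transcripts, had 3296, 3979 and 2909. Among the 6 IκB proteins, NFKBIA and NFKBIE passed 1000 bases. NFKBIE had 2824, 4114 and 2794, whereas BCL3, a nuclear IκB protein that binds p50 and p52, had 5844, 5768 and 5971.

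The subunits themselves differed little. None of the 5 NF-κB subunits passed 1000 bases, and the list median was 247. NFKB2, which encodes p100, had 2404 bases in vehicle, 3271 after TNFα and 2922 after TWEAK. RELB had 589, 564 and 874, which puts TWEAK above TNFα by 310 bases. All 5 had a RELA region of 6 h TNFα and a RELB region of 6 h TWEAK within 10 kb. Of the 12 TRAF, cIAP, NIK and IKK genes, only MAP3K14, which encodes NIK, passed 1000 bases, with 2941, 2395 and 1273, so that vehicle was the highest. After scaling its difference was 978. None of the 16 TNF family ligands and receptors passed. TNFRSF9 (4-1BB), a costimulatory receptor, had no region in vehicle or after TWEAK and 585 bases after TNFα, in 2 TNFα-only regions, chr1:7940488-7940783 and chr1:7941028-7941316. The RELA region chr1:7940797-7941028 filled the gap between them and a RELB region of 6 h TWEAK lay there as well.

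Chemokines and cytokines followed with 3 of 14 genes each past 1000 bases after TNFα and none after TWEAK, and after scaling 1 of 14 each, CXCL11 and CSF2. CXCL8 (interleukin 8), a neutrophil attractant, had 2652, 3567 and 2347 bases, and its RELA summit 79 bp upstream of the start site lay between the TNFα regions chr4:73739604-73740350 and chr4:73740665-73743035, where TWEAK and vehicle had 1 unbroken region each. CXCL11, an attractant of T cells, had 297, 1807 and 699. CXCL2, another neutrophil attractant, had 3084, 3200 and 2094. CCL2, the monocyte attractant, was listed at 0 in vehicle and after TWEAK and had 932 bases after TNFα. Its 2 TNFα-only regions, chr17:34252212-34252485 and chr17:34252847-34253504, flanked the RELA region chr17:34252555-34252765, whose window with the NF-κB matches is printed above, and no RELB region of 6 h TWEAK was listed within 10 kb. Among cytokines, CSF2 (GM-CSF) had 2359, 3894 and 2466, CSF3 (G-CSF) had 3611, 4257 and 2994, and IL32 had 1249, 2842 and 1784. At IL32 the promoter region was 1580 bp after TNFα and 649 bp after TWEAK and was missing in vehicle, with RELA and RELB regions over the printed site.

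MHC class I genes included 3 of 12 past 1000 bases, PSMB8, TAP1 and TAP2, with a list median of 348. PSMB8, an immunoproteasome subunit, had 850 bases in vehicle, 2327 after TNFα and 663 after TWEAK, and TAP1, a peptide transporter, had 463, 1858 and 451. TAP2, PSMB8, TAP1 and PSMB9 are neighbours on chromosome 6 and share regions, so they are not separate observations. Interferon response genes included 2 of 16, ISG20 with 3369, 4115 and 2765 and IRF1, a transcription factor of that response, with 3786, 4456 and 3250, and after scaling ISG20 alone passed. In the adhesion and stress list 1 of 14 passed, SOD2, the mitochondrial superoxide dismutase, with 3807, 5128 and 3841, and after scaling its difference was 853. ICAM1, a leukocyte adhesion molecule, was listed at 0 in vehicle and after TWEAK, had 278 bases after 6 h of TNFα and had 1583 after 30 min of TNFα.

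Among genes of invasion and epithelial identity more bases were also listed after TNFα than after TWEAK, though for the epithelial markers vehicle stood higher than either ligand in the median. The 14 invasion and matrix genes had a median difference of 464 bases. MMP1, an interstitial collagenase, had 945, 1019 and 892. Of the 8 epithelial markers 7 had more bases after TNFα, as did 15 of the 18 ribosomal protein genes, and CDH1 (E-cadherin) alone passed 1000, with 1789, 2795 and 1287. The list median was 640 against TWEAK and −112 against vehicle, while TWEAK minus vehicle was −669. None of the 12 ephrin and EGFR ligand genes passed 1000 bases, with a list median of 219. EFNA1, an ephrin ligand among them, had 4055, 4822 and 3871 bases. A TNFα-only region, chr1:155124105-155124468, lay 3589 bp upstream of EFNA1 beside a RELA region. All 8 epithelial markers had H3K27ac after both ligands. Of the 8 leukocyte markers 4 were at 0 in vehicle and at 6 h of both ligands, among them PTPRC (CD45), and the list median was 0.

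AP-1 and ribosomal protein genes were counted for comparison. None of the 11 AP-1 genes passed 1000 bases in either direction, with a median of 18. JUNB, an AP-1 subunit, had 5850 bases in vehicle, 5751 after TNFα and 6502 after TWEAK, and after scaling it passed the limit in the TWEAK direction at −1486. The 18 ribosomal protein genes had a median difference of 247 with 0 past 1000 bases, so a list median of this size was also seen for housekeeping genes.

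**Figure D5:**
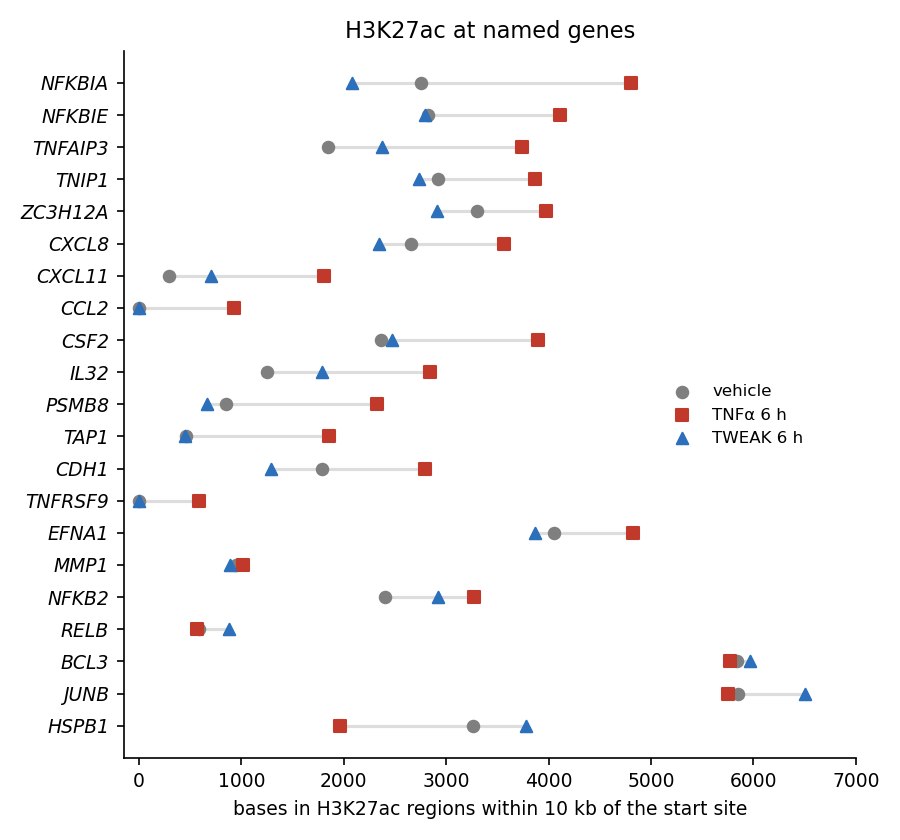
Bases in H3K27ac regions within 10 kb of the start site (x axis) in vehicle (grey circles), after 6 h of TNFα (red squares) and after 6 h of TWEAK (blue triangles) for genes named in the text, chosen for the plot after their values were seen, 1 merged list per condition. NFKBIA has the widest gap between TNFα, 4802, and TWEAK, 2084, and HSPB1 at the bottom has the reverse order.

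Outside the lists, genes with large differences toward TNFα included SEMA3A, DNAJC5, UBTD2, C9, TCEANC and CDKAL1. SEMA3A, a secreted axon guidance cue, had 4215 bases in vehicle, 5298 after TNFα and 2887 after TWEAK, with no RELA region of 6 h TNFα in the window. DNAJC5, a synaptic co-chaperone, had 2788, 4561 and 2293, and its TNFα-only region chr20:63888716-63890207 of 1492 bp, absent from vehicle, held a RELA region. UBTD2 had 4118, 5088 and 2999. C9, a complement component, had 1049, 2185 and 329, TCEANC had 2249, 3534 and 1690, and CDKAL1, a tRNA-modifying enzyme, had 1701, 3253 and 1415.

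Toward TWEAK the largest difference was that of HSPB1, a small heat shock protein, with 3266 bases in vehicle, 1960 after TNFα and 3784 after TWEAK. Its promoter region spanned 1518 bp after TNFα, chr7:76302616-76304133, and 3318 bp after TWEAK, chr7:76302314-76305631. In vehicle it spanned 2879 bp, so the region was shorter than vehicle after TNFα and longer after TWEAK. IZUMO1, FGF21 and FUT1 are neighbours on chromosome 19 and share the stretch that differed. FGF21, a liver hormone, and FUT1, a fucosyltransferase, each had 1783, 1336 and 2772 bases, and IZUMO1, a sperm fusion protein, had 2594, 1951 and 3558. EPPK1, an epithelial plakin, had 3886, 2175 and 3482, PRKAG2, a regulatory subunit of AMPK, had 1096, 0 and 1284, GAL3ST2, a sulfotransferase, had 361, 0 and 1268, and CHD9NB had 2147, 1869 and 2951. Of these 8 genes none had a RELA region of 6 h TNFα or a RELB region of 6 h TWEAK within 10 kb. Over all genes the shares were 7.18% and 2.90%, so none among 8 is close to what all genes show.

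A TNFα-only region lay within 10 kb of the start site of 1957 genes (9.98%) and a TWEAK-only region within 10 kb of 1204 genes (6.14%). In the lists the TNFα-only share was 50.0% for the 14 cytokine genes and for the 12 MHC class I genes, 42.9% for the 14 invasion and matrix genes and 5.56% for ribosomal protein genes, and the TWEAK-only share was 14.3%, 0%, 0% and 5.56%. For the 14 adhesion and stress genes 21.4% were near a TNFα-only and 28.6% near a TWEAK-only region, which is 3 genes against 4. The 4 include the neighbours ICAM4 and ICAM5, which had the same 1826, 1414 and 1348 bases in vehicle, TNFα and TWEAK. They are not separate observations, so no reversed order is read from these counts. The NF-κB subunits had neither kind of region. The 6 MHC class I genes near a TNFα-only region include the neighbours TAP2, PSMB8, TAP1 and PSMB9, which share regions and are not separate observations. For the genes that the study's RNA-seq listed as specific to TNFα, 28.9% (23.5 to 34.8) of 263 matched names were the gene nearest, within 50 kb, to a TNFα-only region absent from vehicle and outside tandem repeats. For the study's common list, whose 626 names take in genes preferentially activated by TWEAK beside those common to both ligands, the share was 27.6% (23.6 to 31.7) of 490, and for all genes 17.0% (16.5 to 17.5). For TWEAK-only regions the shares were 15.2% (11.1 to 20.1), 10.8% (8.21 to 13.9) and 11.4% (10.98 to 11.9). By covered bases, 12 of the 263 TNFα-specific genes (4.56%) and 33 of the 490 genes of the common list (6.73%) had at least 1000 more after TNFα and 0 of either list at least 1000 more after TWEAK, read against 1.59% and 0.051% of all genes. After scaling these counts were 3 of 263 and 14 of 490 toward TNFα and 2 of 263 and 5 of 490 toward TWEAK. The scaled shares of all genes were 0.714% toward TNFα and 0.240% toward TWEAK. The absence of genes toward TWEAK in these lists therefore did not hold after scaling. The study drew these gene names from RNA of the same line and ligands. With RELA overlap in addition, 3 TNFα-specific genes, CLIP2, PLEKHG3 and SHH, and 3 genes of the common list, FA2H, SDC4 and WWC1, were nearest to such a TNFα-only region.

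The strongest regions of each class, ranked by fold enrichment over input outside tandem repeats, were mostly present in vehicle. The 10 strongest TNFα-only regions outside tandem repeats had fold enrichments of 4.45 to 5.17 and lengths of 251 to 614 bp, and 7 of them were present in vehicle. They lay nearest SI, ACP6, SP100, ALOX12B, ARMH1, CCDC8, MAGEA11, CFAP54, WDR72 and TBC1D30. The one in an intron of ACP6, chr1:147641007-147641506, was absent from vehicle and overlapped RELA. The 10 strongest TWEAK-only regions had fold enrichments of 4.59 to 5.31 and lengths of 228 to 366 bp, 9 of them were present in vehicle and 0 overlapped RELA or FOSL1. They lay nearest NTRK2, ANGPTL6, HERPUD2, NFIB, DMRT2, NTN5, C19orf12, C4orf19, TMEM170B and RHPN1.

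Among regions absent from vehicle, the 5 strongest TNFα-only regions with RELA included those nearest ACP6, CNTNAP5, XNDC1N and LLPH, with fold enrichments of 3.99 to 4.58. The one at XNDC1N, chr11:71911356-71911789, overlapped RELA, RELB and FOSL1 beside the AP-1 match printed above. Only 4 TWEAK-only regions absent from vehicle overlapped RELB outside tandem repeats, with fold enrichments of 2.48 to 3.27, and not all of these 4 are of unique sequence. Those at PACS1, chr11:66222261-66222803, and ADRA1B, chr5:159902656-159903235, also overlapped RELA after TNFα and a region of 30 min of TNFα.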

How the data were processed

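ChIP-seq of H3K27ac, RELA, RELB and FOSL1 in L3.6pl was deposited as 1 peak list per condition, merged from 3 replicates, and 13 of 16 lists were used. Per the study's methods, the authors used Bowtie2 2.5.0 for mapping on hg38 and called peaks with MACS2 against input, broad for H3K27ac and narrow for the factors, at a stated cutoff of 0.05. The submitters' processing notes also name SAMtools 1.18 and deepTools 3.3.2. The deposited fold enrichment is the authors' ratio of ChIP over input, and the deposited −log10 q, averaged over broad peaks, is their significance. The broad lists also hold regions with an average q above 0.05, namely 1119 after TNFα and 1934 after TWEAK. No repeat filter is named in the sources used here. The depth is unknown.

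Overlaps, covered bases, distances and exact 95% intervals were computed with own code in Python 3.11.15, numpy 2.4.6, pandas 2.3.3 and scipy 1.17.1, checked on simulated regions, and figures were drawn with matplotlib 3.10.9. Start sites and gene parts came from GENCODE 44. A window was placed in a tandem repeat when at least 0.4 of its 1000 bp matched itself after a shift of 1 to 400 bp. Samples were grouped by their titles. The named genes were the 10 strongest regions of each class, the 5 strongest absent from vehicle with RELA or RELB, 6 genes whose tracks the study shows, up to 4 genes of each of 16 lists by difference in bases, and the 8 genes with the largest difference each way. Names of 2 further lists came from the study's supplement. The members, lists and alternatives were chosen with earlier results of these data known. The other 3 lists, at 30 min, were not used here. Some items are not reported here.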

Additional observations from a re-analysis of the deposited data

How the results depend on the processing

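No paired analysis was possible because each condition has 1 merged list, and for the same reason leaving out a replicate was not run. The share of each list held by regions of 1 ligand was higher after TNFα than after TWEAK under all settings run, and the share of promoters was higher among TWEAK-only regions under all settings run. The order for vehicle, RELA and RELB changed with the setting, and the cause was not tested.

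Values are given as TNFα then TWEAK, first for the share of the list that is of 1 ligand, then, among those regions, in vehicle, with RELA, with RELB and at promoters. With q of at most 0.001 in both lists they were 21.2% and 6.94%, 77.8% and 79.0%, 7.13% and 6.25%, 4.53% and 5.21%, 7.35% and 10.3%. With that limit on the own list and the whole other list they were 7.63% and 2.53%, 54.98% and 60.2%, 8.90% and 10.3%, 5.26% and 8.72%, 6.74% and 12%. With the 40000 strongest regions of each list they were 14.7% and 10.6%, 79.1% and 81.0%, 8.47% and 6.14%, 5.14% and 4.82%, 7.44% and 10.1%.

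An overlap of 50% of the shorter region gave list shares of 23.2% and 14.4% and vehicle shares of 42.3% and 42.7%. Requiring no region of the other list within 1000 bp gave list shares of 17.2% and 9.87%, vehicle shares of 36.5% and 34.4%, RELA in 4.82% of TNFα-only regions, and promoter shares of 4.27% and 5.10%. Outside tandem repeats the list shares were 21.3% and 12.2%, RELA 1.73% and 0.224%, and RELB 0.501% and 0.104%. Promoter windows of 500 and 2500 bp gave 3.88% and 5.25%, then 9.13% and 9.76%. With q of at most 0.05, chosen after seeing the data, TWEAK-only regions made up 11.4% of their list, the vehicle shares were 42.8% and 42.7%, and RELA overlapped 4.40% of TWEAK-only regions.

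RELA summits with H3K27ac after TNFα alone made up 13.2% when the peak had to cover the summit. RELB summits with H3K27ac after TWEAK alone made up 3.71% at q of at most 0.001, 1.16% outside tandem repeats and 2.41% for summits not in the RELB vehicle list. Depth could not be set against any of these values.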
